A study of Mus musculus with 12 samples.

Results

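CircKat6b-e2 is a circular RNA whose name refers to the second exon of Kat6b, and its knockdown (KD) was compared here with wild-type (WT) cells in undifferentiated mouse embryonic stem cells (ESCs). The comparison took every library of that state: 3 WT and 3 KD libraries, 6 of the 12 in the series, and all 52636 genes of the deposited count table, of which 16081 had enough counts to be tested. All cells were of the line E14, kept without differentiation on gelatin in serum medium with LIF and the inhibitors PD0325901 and CHIR99021. The titles mark the KD as an shRNA against circKat6b-e2. Whether the WT cells received a control shRNA is not stated, nor whether the KD line is clonal or pooled, and any such difference between the populations is contained in the values below. The series' design text calls the 3 replicates of each condition biological. The other libraries were embryoid bodies (EBs, aggregates in which ESCs differentiate) of the same WT and KD cells at day 6, and are used below for 7 genes only.

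Circular RNAs form when the spliceosome joins the end of an exon back to an upstream start, which leaves a closed loop without a poly-A tail. Kat6b encodes a lysine acetyltransferase of the MYST family that works in a complex with BRPF, ING5 and MEAF6 subunits. ESCs held with LIF and inhibitors of MEK and GSK3 are in the naive state, marked by factors such as Klf4, Esrrb and Zfp42, while a small and changing fraction of a culture passes through a 2-cell-like state marked by the Zscan4 family. In the annotation of the genome build GRCm38, exon 2 of the coding Kat6b transcript lies at chr14:21516626-21517498 on the plus strand, is 873 bases long and holds the start codon at position 21516875. The labels do not give the coordinates of the circle. mRNA was selected with poly-T beads, which do not select for circles, so the knocked-down RNA itself was not measured.

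Library totals lay between 25.4 and 37.8 M counts, and each library had a count in 20021 to 20988 genes. WT replicate 2 stood apart from the other 5 libraries. On the first principal component of log2 CPM (counts scaled to a common library total, in counts per M), which held 41.3% of the variance, it lay at -80.0 and the others between -5.27 and 32.1. Of 7094 well-expressed genes (mean log2 CPM of at least 4), 63 were over 1 log2 unit higher and 77 over 1 lower in WT replicate 2 than in the mean of the other libraries, against 2 to 13 genes in either direction for each other library. Its normalization factor by the trimmed mean of M-values (TMM) was 0.874, against 1.004 to 1.053. The genes that set it apart most included Ppp1ca, a catalytic subunit of protein phosphatase 1, at 163 CPM against 2.74 to 8.71 CPM elsewhere, and the pseudogene Gm29216 at 342 CPM against 22.2 to 112 CPM. Other such genes were low in it: Ctnnb1 (beta-catenin) stood at 38.0 CPM against 118 to 168 CPM, Cbx3 (a heterochromatin protein) at 7.46 against 27.4 to 37.0 CPM, and Dek at 7.32 against 28.8 to 37.6 CPM. These genes were picked for their distance in that library, so the values are a description.

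**Figure D1:**
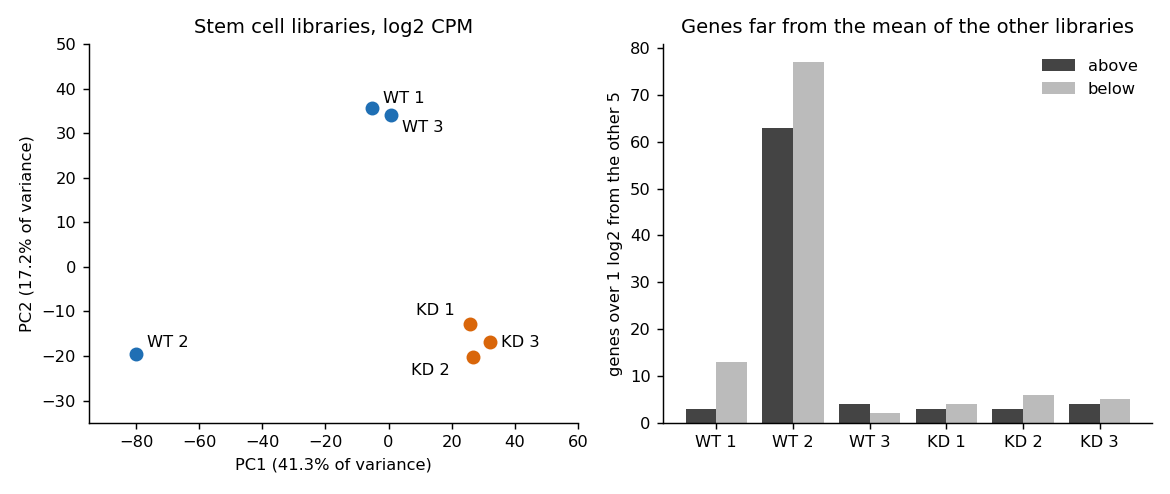
Left, the 6 stem cell libraries (WT blue, KD orange) on the first and second principal components of log2 CPM; right, the number of well-expressed genes more than 1 log2 unit above or below the mean of the other 5 libraries, for each library. WT 2 lies alone at -80.0 on the first component and has 63 genes above and 77 below.

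The difference moved with gene length. The well-expressed genes were split by annotated exon length into 5 classes of about equal size. In the shortest class (up to 2178 bases) the median difference of WT replicate 2 from the other libraries was 0.29 on the log2 scale, and in the longest class (from 7065 bases) it was -0.14. The KD libraries tilted the other way, from -0.08, -0.09 and -0.14 in the shortest class to 0.06, 0.06 and 0.08 in the longest. For a KD library the other libraries include WT replicate 2, so the tilt of WT replicate 2 enters these values. The median KD minus WT log2 fold change therefore ran from -0.17 to 0.11 over the classes with all libraries, and from -0.10 to 0.08 without WT replicate 2. The part of length in the calls below was not tested.

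**Figure D2:**
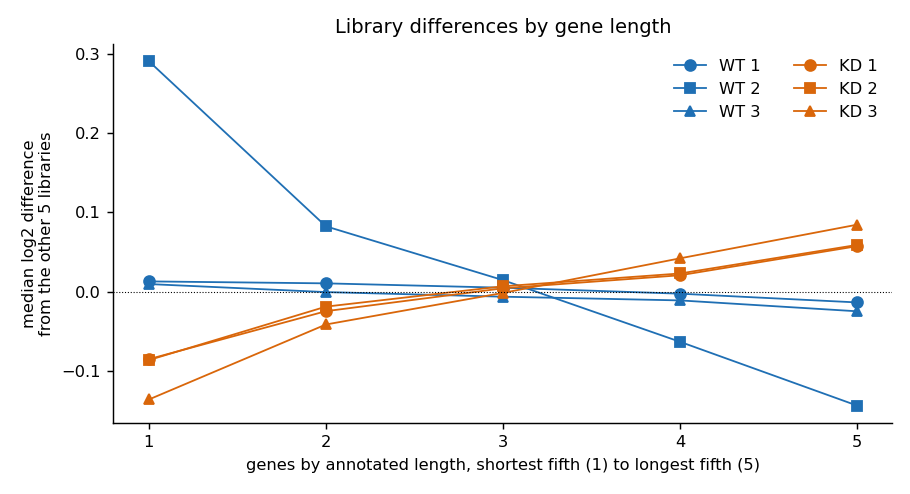
Median log2 difference of each library from the mean of the other 5 (y axis) in 5 classes of the well-expressed genes by annotated length (x axis); WT libraries are blue and KD libraries orange, with a symbol per replicate. WT 2 goes from 0.29 to -0.14 across the classes, and the KD libraries go the other way.

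Markers of the labelled cell type were high in every library: Pou5f1, the central pluripotency factor, averaged 896 CPM in WT and 1027 CPM in KD, or 399 and 457 CPM per kb of annotated exon. Summed over 8 ESC markers the level ran from 2777 to 3267 CPM in WT and from 3448 to 3540 CPM in KD libraries. Among markers of other cell types, the 4 neural markers had the highest sum, at 85.6 to 93.8 CPM in WT and 92.3 to 97.6 CPM in KD. Tubb3 was the highest of them over all libraries. In WT it averaged 42.6 CPM and Nes 43.9 CPM, and in KD 53.6 and 36.6 CPM. The 5 primitive endoderm markers summed to 1.20 to 3.52 CPM in WT and 1.60 to 2.26 CPM in KD, the 4 primitive streak markers to 6.49 to 8.65 and 7.67 to 8.80 CPM, and the 5 trophoblast markers to 8.50 to 13.3 and 7.58 to 9.72 CPM. Of 6 fibroblast markers Postn was at 0 in every library, and Thy1, which ESCs can express, made up most of the 23.0 to 32.2 CPM in WT and 20.2 to 24.6 CPM in KD. The 6 markers of 2-cell-like cells summed to 4.78 to 5.57 CPM in WT and to 0.533 to 0.852 CPM in KD. In bulk RNA, fewer cells of a type and less RNA per cell cannot be told apart.

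With all 6 libraries, 97 of 16081 tested genes (percent called 0.603) passed edgeR's quasi-likelihood test at a Benjamini-Hochberg adjusted p under 0.05. Of these 70 (0.435%) were lower and 27 (0.168%) higher in KD, and 33 changed by at least 1 on the log2 scale. In all 97 the KD libraries lay wholly on one side of the WT libraries, as they did in 2464 (15.3%, KD above) and 2483 (15.4%, KD below) of all tested genes. An unadjusted p under 0.05 was reached by 3447 genes.

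Without WT replicate 2 the number called rose to 1557 of 16648 tested genes (percent called 9.35), with 624 (3.75%) higher and 933 (5.6%) lower. All 97 genes were among them with the same sign, although the fold was smaller in 82 of the 97 and the median ratio of the log2 fold changes was 0.91 (0.73 to 1.20). The biological coefficient of variation that edgeR estimated fell from 0.181 to 0.128. The 1460 added genes had small changes, with a median absolute log2 fold change of 0.28 against 0.77 for the 97, and 85 of them reached 1. For 1449 of these that were also tested with all libraries the direction was the same, and 1342 had an unadjusted p under 0.05 there. In 1139 of the 1449, WT replicate 2 lay outside the other WT libraries on the side away from KD, in 173 on the KD side, and in 137 between them. The same shares were not taken over all tested genes. On the first principal component, too, WT replicate 2 (-80.0) lay away from KD (25.7 to 32.1). Whether these counts are particular to the added genes was not tested.

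Leaving out any other library had a different effect. The number called was 23 without WT replicate 1 (19 of them among the 97) and 296 without WT replicate 3 (91 among the 97). It was 10, 8 and 8 when KD replicate 1, 2 or 3 was dropped, with 10, 8 and 7 shared. Of the 97 genes, 71 were called without WT replicate 2 and without WT replicate 3 and in no other fit with a library left out. With WT replicate 2 kept, most single calls thus depended on having WT replicate 1 and all 3 KD libraries. Once WT replicate 2 was out, a further library could be left out with 752 to 1303 genes still called, among them 89 to 97 of the 97. DESeq2 called 1030 genes with all 6 libraries and 1493 without WT replicate 2, and limma's voom with a weight per library, which gave WT replicate 2 a weight of 0.256 against 1.04 to 1.61, called 1032. With library size as the only scaling the count with all libraries was 36, and the median over all tested genes moved to 0.12. The same scaling without WT replicate 2 called 1093 genes higher and 657 lower (62.5% higher, against 40.1% with TMM), so the balance of rises and falls among the many small changes depended on the scaling.

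**Figure D3:**
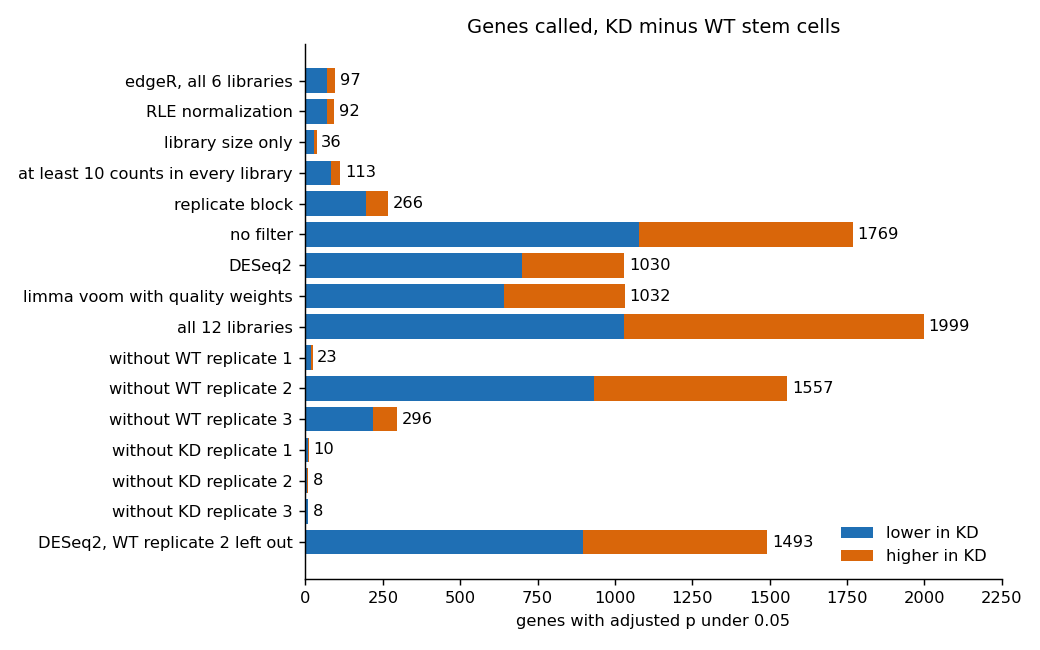
Number of genes with an adjusted p under 0.05 (x axis) for each way of fitting the stem cell libraries (y axis), split into genes lower (blue) and higher (orange) in KD. The count is 97 with all 6 libraries, 1557 without WT 2, and 8 to 10 without any 1 of the KD libraries.

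Kat6b, the host gene of the circle (chr14:21481434-21672478, plus strand), was at 75.8, 56.3 and 69.0 CPM in WT replicates 1 to 3 and at 91.0, 84.6 and 90.9 CPM in KD. The KD libraries were all above the WT libraries, with WT replicate 2 the lowest. The log2 fold change of 0.41 (SE 0.10) missed the threshold (edgeR adjusted p = 0.0893) and passed without WT replicate 2 (0.29, SE 0.07, adjusted p = 0.00208). Kat6b reads come from its linear transcripts here and do not check the knockdown. Of 11 tested genes of the MYST acetyltransferases and their complex, 0 passed with all libraries (median log2 fold change 0.25, against 0.01 over all tested genes). When WT replicate 2 was left out, 3 were higher and 0 lower (median 0.14), where 3.75% of all tested genes were higher. The 3 were Kat6b, Kat7 (0.19, SE 0.05) and the scaffold subunit Brpf3 (0.30, SE 0.09). Kat7 is the acetyltransferase of histone H3 and H4 in the HBO1 complex. Kat6a, the paralog of Kat6b, averaged 18.1 CPM in WT and 18.3 CPM in KD (0.02, SE 0.11).

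There were 7 genes that passed with all libraries and with any single library dropped: Phlda2, Slc22a18, Smtnl1, Celsr2, Lars2 and Gm21761 were lower in KD and Gm21742 was higher. With edgeR and this filter their calls did not depend on WT replicate 2. DESeq2, which gives no adjusted p for some genes, called 7 of them with all libraries and 5 without WT replicate 2. With a minimum of 10 counts in every library, edgeR called 6. The 7 genes were picked by their calls in these libraries, so their stability across the fits is part of how they were chosen. The windows from 250 bases before to 50 bases after the annotated start of 4 of them and of Ube2l6, a called neighbour of Smtnl1, are shown because these mRNAs fell and include the adjacent pairs Phlda2 with Slc22a18 and Smtnl1 with Ube2l6. They are from RefSeq (GRCm38.p6), read on the gene's strand, with each CG dinucleotide, the site of DNA methylation, in capitals.
Phlda2: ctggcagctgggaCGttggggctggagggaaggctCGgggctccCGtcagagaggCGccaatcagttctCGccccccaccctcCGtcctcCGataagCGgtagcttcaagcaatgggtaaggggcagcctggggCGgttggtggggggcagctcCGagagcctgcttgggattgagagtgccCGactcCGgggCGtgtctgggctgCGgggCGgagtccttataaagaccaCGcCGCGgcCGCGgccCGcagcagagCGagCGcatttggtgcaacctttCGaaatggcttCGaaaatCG
Slc22a18: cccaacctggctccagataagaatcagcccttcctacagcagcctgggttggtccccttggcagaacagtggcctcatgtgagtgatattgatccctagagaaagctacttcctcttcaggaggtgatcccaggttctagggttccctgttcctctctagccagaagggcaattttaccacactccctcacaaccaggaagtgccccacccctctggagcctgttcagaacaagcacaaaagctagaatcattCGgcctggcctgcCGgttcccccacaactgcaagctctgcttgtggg
Smtnl1: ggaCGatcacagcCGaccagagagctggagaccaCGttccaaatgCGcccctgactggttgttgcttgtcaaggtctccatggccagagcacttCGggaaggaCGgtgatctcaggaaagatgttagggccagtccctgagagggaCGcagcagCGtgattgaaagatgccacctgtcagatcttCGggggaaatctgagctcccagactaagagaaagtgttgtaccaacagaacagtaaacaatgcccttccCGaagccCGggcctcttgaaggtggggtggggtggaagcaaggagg
Ube2l6: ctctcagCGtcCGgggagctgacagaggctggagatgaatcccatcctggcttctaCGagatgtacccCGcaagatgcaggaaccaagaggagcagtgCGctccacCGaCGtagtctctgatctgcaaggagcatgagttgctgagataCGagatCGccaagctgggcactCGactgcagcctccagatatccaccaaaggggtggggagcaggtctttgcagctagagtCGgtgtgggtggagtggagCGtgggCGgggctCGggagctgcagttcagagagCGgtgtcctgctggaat
Celsr2: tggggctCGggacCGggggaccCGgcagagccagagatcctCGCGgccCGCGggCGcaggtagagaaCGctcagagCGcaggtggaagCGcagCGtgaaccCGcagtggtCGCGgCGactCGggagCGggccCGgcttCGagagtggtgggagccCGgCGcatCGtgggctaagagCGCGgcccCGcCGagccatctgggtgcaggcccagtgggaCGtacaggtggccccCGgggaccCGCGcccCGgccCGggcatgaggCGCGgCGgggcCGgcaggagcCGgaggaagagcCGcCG
The windows lie at chr7:143502475-143502774 (minus strand) for Phlda2, chr7:143473539-143473838 (plus) for Slc22a18, chr2:84822603-84822902 (minus) for Smtnl1, chr2:84798578-84798877 (plus) for Ube2l6 and chr3:108415530-108415829 (minus) for Celsr2. They differ widely in CG content: Celsr2 has 40 CG dinucleotides, Phlda2 26, Ube2l6 15, Smtnl1 11 and Slc22a18 2. Of the 32851 windows in the same table, 3.91% hold at least as many as Celsr2, 16.9% as many as Phlda2 and 85.9% as many as Slc22a18. The letters TATAAA, searched on both strands, occur in the Phlda2 window alone of these 5 and in 13.6% of all windows.

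Phlda2, an imprinted gene that restrains placental growth (chr7:143501545-143503150), was at 50.8, 67.1 and 51.6 CPM in WT and at 10.4, 13.3 and 16.3 CPM in KD. WT replicate 2 was the highest library, and the groups were far apart without it. The log2 fold change was -2.08 (SE 0.17, edgeR adjusted p = 6.12e-04) and -1.94 (SE 0.12, adjusted p = 6.84e-11) without WT replicate 2. Slc22a18, an imprinted organic cation transporter (chr7:143473736-143499334) whose 3′ end lies 2211 bases from that of Phlda2, stood at 10.4, 10.4 and 7.69 CPM in WT and 2.51, 2.09 and 2.49 CPM in KD (-2.004, SE 0.21, edgeR adjusted p = 0.00272). Here WT replicates 1 and 2 were alike.

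Smtnl1, a smoothelin-like protein of muscle (chr2:84811176-84822652), had 24.5, 34.3 and 29.2 CPM in WT and 9.63, 5.92 and 6.69 CPM in KD (-1.99, SE 0.19, edgeR adjusted p = 0.00159). Ube2l6, the conjugating enzyme for the ubiquitin-like modifier ISG15, ends 841 bases away on the opposite strand (chr2:84798828-84810335) and had 8.39, 13.1 and 10.7 CPM in WT and 3.96, 4.21 and 4.13 CPM in KD (-1.38, SE 0.20, adjusted p = 0.0196). Both were highest in WT replicate 2. Ube2l6 was called without each WT library and lost its call without each KD library (adjusted p from 0.155 to 0.160). The models of the 2 genes do not overlap. Celsr2, a seven-pass cadherin of planar cell polarity (chr3:108390851-108415552), was at 17.4, 13.8 and 14.4 CPM in WT and 3.43, 4.25 and 4.17 CPM in KD (-1.94, SE 0.18, edgeR adjusted p = 8.57e-04). In this gene WT replicate 2 was the lowest WT library, and the fall was -2.01 without it. Of 9 tested cadherins and protocadherin-like receptors it alone passed (median 0.11).

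Lars2, the mitochondrial leucyl-tRNA synthetase (chr9:123366927-123462666), was at 266, 358 and 250.5 CPM in WT and 118, 100.3 and 104 CPM in KD (-1.44, SE 0.13, edgeR adjusted p = 0.00177). WT replicate 2 was again the highest, and the value without it was -1.27 (SE 0.06). Of 17 mitochondrial tRNA synthetases Lars2 alone passed (median -0.05). The end of the Lars2 locus in mouse is known to resemble ribosomal RNA, and other loci with such sequence are given beside it. CT010467.1, annotated as ribosomal RNA, had 285, 429 and 259 CPM in WT and 93.5, 66.4 and 67.8 CPM in KD (-2.10, SE 0.23, edgeR adjusted p = 0.0260). Its call was lost without WT replicate 1, KD replicate 2 or KD replicate 3 (adjusted p up to 0.147). Gm26917, beside it on chromosome 17, had 548, 783 and 567 CPM against 456, 423 and 390.0 CPM (-0.58, adjusted p = 0.0727, and 1.17e-06 without WT replicate 2). The list of such loci includes Lars2 itself. Of its 5 tested members 2 passed, Lars2 and CT010467.1, both lower, where 0.435% of all tested genes were lower. All 5 had negative values. The 8 listed loci, Lars2 among them, summed to 1078 to 1577 CPM in WT and to 563 to 669 CPM in KD libraries. The part of such reads in the Lars2 value was not tested.

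Gm21761 and Gm21742 are gene models. Gm21761 (chr13:119912095-119929272), a member of a protein family of the 2-cell-like state, stood at 8.73, 12.5 and 8.51 CPM in WT and 1.29, 0.993 and 1.42 CPM in KD (-2.998, SE 0.25, edgeR adjusted p = 6.12e-04). Gm21742, an unprocessed pseudogene on chromosome Y (chrY:90837413-90844040), stood at 0.475, 0.328 and 0.683 CPM in WT and 6.09, 6.34 and 6.38 CPM in KD (3.65, SE 0.31, adjusted p = 6.12e-04). Both have near-identical copies, and the deposited counting command names no option for reads that align to several copies, so their values are uncertain.

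**Figure D4:**
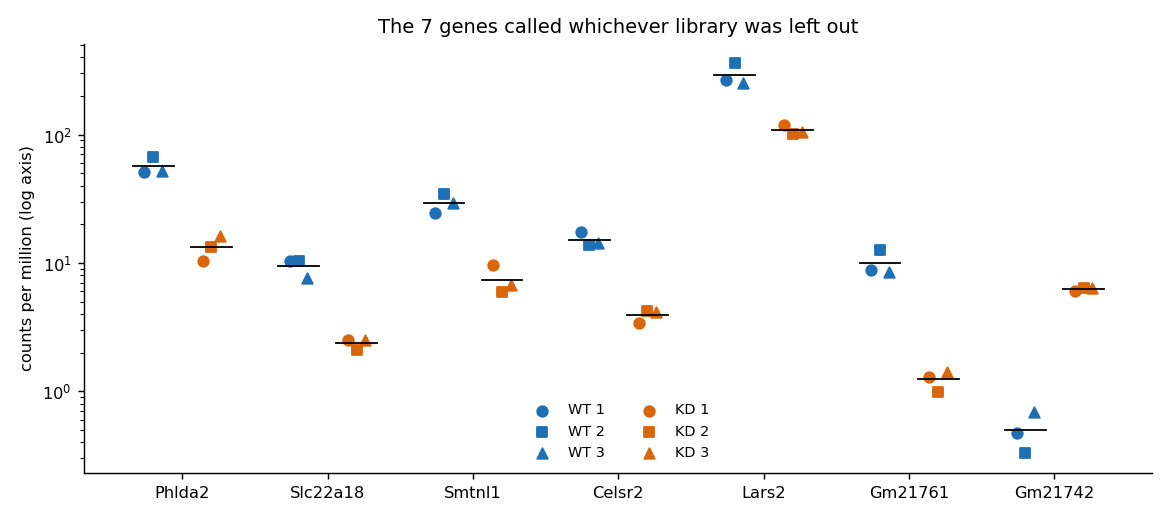
CPM on a log axis (y) of the 7 genes called in every fit with a library left out (x), WT in blue and KD in orange, a symbol per replicate, with a line at each group mean. WT and KD points do not overlap in any of the 7; Gm21742 alone is higher in KD.

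The day 6 EBs give a second look at these genes in libraries that took no part in choosing them. In that comparison 9667 of 17355 tested genes were called (percent called 55.7; 28% higher and 27.7% lower), so a call there says little by itself. Phlda2 was at 226, 263 and 264 CPM in WT EBs and 32.6, 34.3 and 33.3 CPM in KD EBs (-2.91, SE 0.05, edgeR adjusted p = 9.40e-22). Slc22a18 was at 3.27, 2.71 and 3.16 CPM against 0.962, 0.328 and 0.335 CPM (-2.48, SE 0.36, adjusted p = 7.10e-07). Celsr2 was at 39.8, 36.5 and 41.7 CPM against 15.2, 15.6 and 15.9 CPM (-1.34, SE 0.08, adjusted p = 6.69e-15). These 3 falls were thus present at both stages. Lars2 did not pass, at 73.4 ± 1.96 and 75.9 ± 6.97 CPM (SD, n = 3; log2 fold change 0.05, SE 0.05, edgeR adjusted p = 0.482). Gm21742 went the other way, at 47.4 ± 2.55 CPM in WT and 28.1 ± 3.54 CPM in KD EBs (-0.75, SE 0.08, adjusted p = 3.13e-09). Gm21761 did not pass (0.91, SE 0.51, adjusted p = 0.130), and Smtnl1, with 0 to 6 counts a library, was not tested in EBs.

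The 2-cell-like state had the lowest median of the 38 gene lists, with all libraries and without WT replicate 2. Of its 12 tested members, 0 rose and 2 fell with all libraries (Gm21761 and Zscan4c), where 0.435% of all tested genes fell. The median log2 fold change was -2.93, or -2.70 with Arg2, at 0 in every KD library, set at its bound. When WT replicate 2 was left out, 0 of 14 rose and 9 fell (median -2.81, or -2.71 with Arg2 at its bound), where 5.6% of all tested genes fell. Zscan4c, a marker of 2-cell-like cells that maintains telomeres (chr7:11005745-11010547), was at 2.16, 1.93 and 1.71 CPM in WT and 0.0761, 0.205 and 0.189 CPM in KD (-3.57, SE 0.53, edgeR adjusted p = 0.0196). WT replicate 2 lay between the other WT libraries. The call was lost without WT replicate 1 and without each KD library (adjusted p up to 0.142). Zscan4d was at 1.98, 1.67 and 1.91 CPM against 0.228, 0.137 and 0.568 CPM (-2.54, adjusted p = 0.0655, and 0.00206 without WT replicate 2). Gm4340, another 2-cell-like transcript, was at 1.27, 1.02 and 1.16 CPM against 0, 0.0685 and 0.189 CPM (-3.62, adjusted p = 0.0694, and 0.00373 without it). Arg2, at 0.449, 0.801 and 0.513 CPM in WT, was at least 5.65-fold lower in KD when 3 counts are allowed in each KD library. Listed members that are also expressed outside this state had small values: Dppa2 had a log2 fold change of 0.07 (SE 0.10) and Eif1a of 0.13 (SE 0.07), and neither passed. Eif1a was called higher with library size as the only scaling and without WT replicate 2. With a minimum of 10 counts in every library only 3 members were tested, of which 1 fell, and their median was 0.07. Apart from Gm21761, the named members that passed in either fit were at about 2 CPM or less in WT, so each rests on few reads. DESeq2 gave no adjusted p for most of them because its independent filter removed low counts. Zscan4 genes are near-identical copies among which reads may be split.

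In the Kcnq1ot1 imprinted domain of distal chromosome 7 with the neighbouring H19 and Igf2 domain, 4 of 14 tested genes fell and 0 rose (median -0.79). Of all tested genes, 0.435% fell with all libraries. In this domain a long noncoding RNA, Kcnq1ot1, is made from the paternal copy and silences neighbouring genes there, which are then expressed from the maternal copy. The genes that fell were Phlda2, Slc22a18, Cdkn1c and H19, all known to be expressed from the maternal copy. Cdkn1c, a cyclin-dependent kinase inhibitor 12686 bases from Slc22a18, was at 3.59, 4.62 and 3.14 CPM in WT and 1.33, 0.993 and 0.821 CPM in KD (-1.85, SE 0.32, edgeR adjusted p = 0.0349). H19, a noncoding RNA, was at 5.99, 4.29 and 7.31 CPM against 1.83, 1.54 and 1.64 CPM (-1.81, SE 0.27, adjusted p = 0.0196). Both lost their calls without WT replicate 1 and without each KD library. Osbpl5, a lipid transfer protein, was at 2.35, 2.26 and 3.04 CPM against 0.152, 0.788 and 1.04 CPM (-1.92, adjusted p = 0.0970, and 0.00579 without WT replicate 2). Kcnq1ot1 itself did not pass and had a positive value (0.47, SE 0.26, edgeR adjusted p = 0.314). Leaving out WT replicate 2, 7 of the 14 fell and 0 rose (median -1.004), where 5.6% of all tested genes fell. The added ones were Osbpl5, Cars and Cd81, the last 2 by -0.17 and -0.16. With library size only, or without WT replicate 1 or any single KD library, 2 of the 14 passed.

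Of 21 tested imprinted genes elsewhere, Plagl1, a zinc finger gene expressed from the paternal copy, was the only one past the threshold (median 0.17). It was at 5.65, 4.62 and 6.29 CPM in WT and 1.33, 2.16 and 2.15 CPM in KD (-1.55, SE 0.27, edgeR adjusted p = 0.0364). Its call was lost with library size only, without WT replicate 1 and without each KD library. Of 24 tested without WT replicate 2, Plagl1 and Ndn fell and 2 rose, where 5.6% of all tested genes fell and 3.75% rose. The risen ones, Peg10 (0.64, SE 0.15) and Mest (0.66, SE 0.21), are expressed from the paternal copy.

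Other falls with all 6 libraries fell into several known roles, and the 97 genes were spread over all chromosomes but 19. Unless stated, a gene in this and the next paragraph kept its call without WT replicate 2 and without WT replicate 3 and lost it without each other library. The list counts with all libraries there stand beside 0.435% of all tested genes lower and 0.168% higher. Mt3, a metallothionein that binds zinc and copper, was at 7.49, 10.7 and 7.04 CPM in WT and 3.31, 2.64 and 2.68 CPM in KD (-1.54, SE 0.23). Of 13 tested genes of the metal response it alone passed. Among inhibitors of the cell cycle, Cdkn2a fell from 14.1 ± 0.768 to 7.31 ± 1.00 CPM (SD, n = 3; -0.95, SE 0.16), beside Cdkn1c, as 2 of 17 tested genes of the D cyclins, their kinases and inhibitors (median -0.16). Of the germline list (21 tested), Stra8, the factor that starts meiosis, fell from 16.9 ± 1.51 to 9.64 ± 1.03 CPM and Stk31 from 12.5 ± 0.656 to 7.09 ± 0.374 CPM, while the meiotic cohesin subunit Stag3 rose from 37.1 ± 2.13 to 51.3 ± 1.25 CPM. Amn, the membrane anchor of the cubilin receptor, had 24.8, 26.5 and 21.4 CPM in WT and 12.6, 11.4 and 11.4 CPM in KD (-1.04, SE 0.13, edgeR adjusted p = 0.00791, called also without WT replicate 1), as 1 of 12 tested endoderm genes. Krt19, a keratin of simple epithelia, fell by 0.74 on the log2 scale (SE 0.12, also called without WT replicate 1), as 1 of 11 trophoblast genes, and Msln, the surface protein mesothelin, by 1.33 (SE 0.24). Apom, an apolipoprotein, fell from 15.7, 23.3 and 14.5 CPM to 8.19, 6.61 and 7.45 CPM (-1.27, SE 0.19), with WT replicate 2 well above the other WT libraries. Lefty2, the secreted NODAL inhibitor, fell by 0.69 (SE 0.11), as 1 of 20 NODAL and BMP pathway genes, and Myl4, an atrial myosin light chain, by 1.02 (SE 0.20), as 1 of 11 streak and mesoderm genes. The edgeR adjusted p of these genes ran from 0.00791 for Amn to 0.0488 for Myl4.

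Rises were fewer. Serpina3m, a serine protease inhibitor of a family of similar copies, went from 1.11 ± 0.0734 to 4.12 ± 0.456 CPM (1.89, SE 0.28). Xlr3a, of an X-linked family of repeated genes expressed in lymphoid and germ cells, was at 3.25, 2.95 and 2.73 CPM in WT and 8.87, 10.0 and 12.3 CPM in KD (1.80, SE 0.20, edgeR adjusted p = 0.00374). It was called in all fits but that without KD replicate 3 (adjusted p = 0.0607). Of 7 tested genes of this list Xlr3a alone passed (median 0.25). Without WT replicate 2 Xlr3b and Xlr4a rose too, 3 of 9 tested in all (median 1.297), where 3.75% of all tested genes rose. Pnma5, 49190 bases from Xlr3a on chromosome X, rose by 0.71 (SE 0.12). Nefm, a neurofilament subunit, had 2.82, 2.98 and 2.32 CPM in WT and 7.12, 8.46 and 6.15 CPM in KD (1.42, SE 0.22). Its neighbour Nefl overlaps it on the other strand with a like number of counts, and the counting named no strand, so the 2 cannot be fully told apart. The homeobox factor Meis2 rose by 1.31 (SE 0.25), a call that was kept without WT replicate 2 and lost without any other single library. The lymphatic growth factor Vegfc rose by 1.06 (SE 0.18), the POU factor Pou2f3 by 1.00 (SE 0.16) and the kinase Pdpk1 by 0.77 (SE 0.14). Among 15 tested WNT targets 2 rose and 0 fell (median 0.06): Sp5 was at 9.92, 7.06 and 6.63 CPM in WT and 14.8, 16.2 and 14.2 CPM in KD, and Myc at 8.73, 7.02 and 8.75 CPM against 15.0, 15.7 and 13.2 CPM. Sp5 was called without WT replicate 1 and without WT replicate 2, and lost its call without WT replicate 3 or any KD library. Myc and the ERK feedback gene Spred2 (0.61, SE 0.11) were the 2 of 19 genes of the FGF and ERK list that rose, with 0 falling (median 0.28). Among these rises the edgeR adjusted p was lowest for Xlr3a (0.00374) and highest for Meis2 and Sp5 (0.0454).

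In edgeR's filtered fits several groups had members past the threshold mainly when WT replicate 2 was left out. Other fits called some of them with all 6 libraries. Voom with weights called 7 of 20 naive genes higher, against 390 of 16081 tested genes. DESeq2 called 5 of 12 mitochondrially encoded mRNAs higher, against 331 of 16081. Without a filter, edgeR called 5 of 18 Polycomb genes higher and 31 of 88 ribosomal protein genes lower, against 690 higher and 1079 lower of 26041. In each of these list counts 0 members went the other way. Some other fits with WT replicate 2 kept did call 1 naive gene lower. DESeq2 called 3 naive genes higher and 1 lower, and edgeR without a filter 6 higher and 1 lower. The fit of all 12 libraries called 5 higher and 1 lower. The median of each list in this and the next 2 paragraphs had the same sign with and without WT replicate 2. The naive pluripotency list had 0 of 20 members past the threshold with all libraries (median 0.15, 11 above 0) and 9 higher and 0 lower without WT replicate 2 (median 0.11, against 0.01 over all tested genes, of which 3.75% were higher). Klf4, a factor of naive cells used in reprogramming, was at 108, 71.1 and 113 CPM in WT and at 138, 123 and 136 CPM in KD. The low value was that of WT replicate 2, and the log2 fold change went from 0.44 (SE 0.15, edgeR adjusted p = 0.150) to 0.26 (SE 0.06, adjusted p = 0.00145). Nr0b1, a nuclear receptor that binds OCT4, was at 41.4, 25.3 and 43.2 CPM against 61.4, 64.4 and 63.9 CPM (0.58, SE 0.08, without WT replicate 2). Zfp42 was at 378, 283 and 386 CPM against 464, 443 and 467 CPM (0.26, SE 0.04), and Esrrb at 429, 367 and 426 CPM against 491, 515 and 510.5 CPM (0.24, SE 0.04). Klf2, Jam2, Tbx3, Manba and Spp1 made up the 9. Klf2 did not have a low WT replicate 2, at 481, 477 and 479 CPM against 523, 582 and 550.0 CPM.

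Of 18 tested Polycomb genes, whose complexes place repressive marks on histone H3 and H2A, 0 passed with all libraries (median 0.22) and 7 rose and 0 fell without WT replicate 2 (median 0.16), where 3.75% of all tested genes rose. Eed, the subunit that reads trimethylated histone H3, was at 115, 95.8 and 114 CPM in WT and 135, 149.5 and 151 CPM in KD (0.34, SE 0.05, edgeR adjusted p = 2.89e-05, without WT replicate 2). Mtf2 (0.27, SE 0.05), Suz12 (0.20, SE 0.06) and Jarid2 (0.16, SE 0.05), other parts of the complex that methylates histone H3, were among the 7. In the DNA methylation machinery Dnmt3b, a de novo methyltransferase, rose in the fit of all libraries (41.2, 34.9 and 40.2 CPM against 55.8, 57.6 and 53.4 CPM; 0.52, SE 0.09, edgeR adjusted p = 0.0380). It was the only one of 12, and its call was lost with library size only, without WT replicate 1 and without each KD library (adjusted p up to 0.244). Without WT replicate 2 Tet2 (0.54, SE 0.10), Tet1 (0.22, SE 0.07) and Dnmt1 (0.14, SE 0.04) rose as well while Mbd3 (-0.16, SE 0.04) fell. In that fit 4 of the 12 were higher and 1 lower, against 3.75% and 5.6% of all tested genes. TET enzymes oxidise methylated cytosine and DNMT enzymes place it, so both kinds were among the higher mRNAs.

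Ribosomal protein mRNAs were the group in which WT replicate 2 deviated most in amount. They summed to 176233 to 262242 CPM in WT libraries, the highest being WT replicate 2, and to 156651 to 165660 CPM in KD. Of 88 tested, 0 passed with all libraries (median -0.30), and 0 rose and 40 fell without WT replicate 2 (median -0.12), where 5.6% of all tested genes fell. With library size as the only scaling and without WT replicate 2, 26 fell (median -0.07). Their median annotated length was 1662 bases, within the shortest length class described above. Of 12 tested mitochondrially encoded mRNAs, 9 had positive values and 1 passed. It was mt-Nd2, a subunit of respiratory complex I, which was at 694, 838 and 664 CPM in WT and 1062, 1065 and 1076 CPM in KD (0.54, SE 0.10, edgeR adjusted p = 0.0380; median of the list 0.35). This call was lost without WT replicate 1 and without each KD library. With WT replicate 2 left out, 5 rose and 0 fell (median 0.38), where 3.75% of all tested genes rose. The 5 were mt-Nd2, mt-Nd1, mt-Cytb, mt-Co1 and mt-Nd3. mt-Nd1 was at 2132, 2164 and 2164 CPM against 2773, 2815 and 2824 CPM, so that WT replicate 2 was like its group there. mt-Co1 was at 3986, 2351 and 4172 CPM against 4367, 4661 and 4962 CPM, with WT replicate 2 low.

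**Figure D5:**
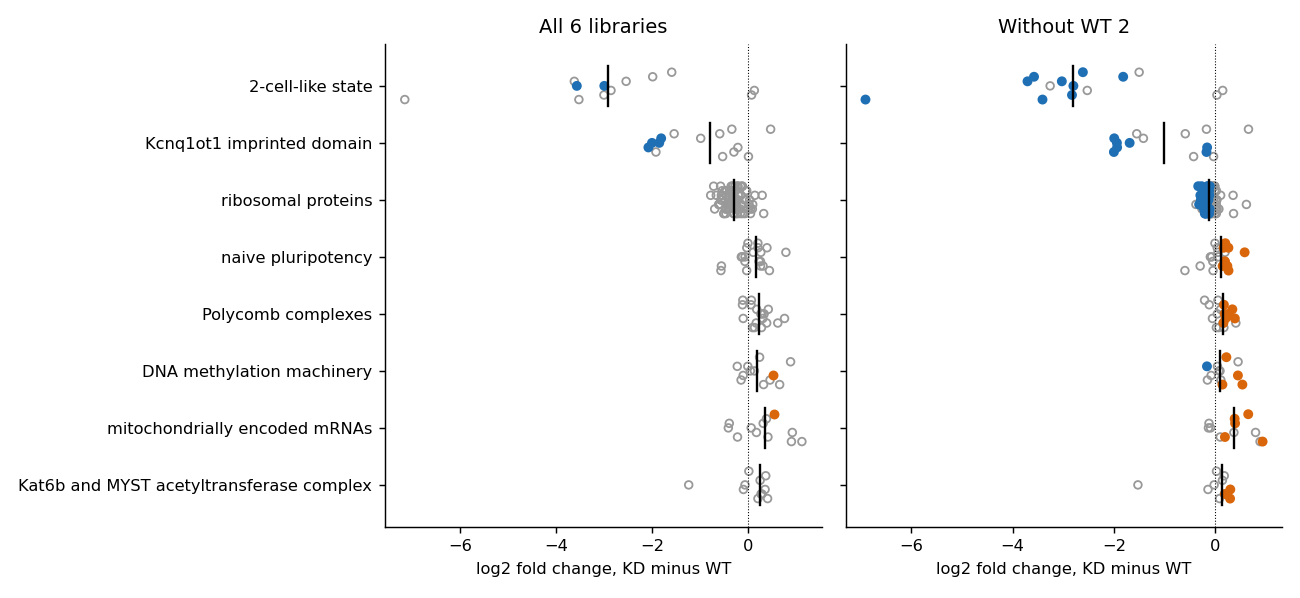
Log2 fold change (KD minus WT, x axis) of each tested member of 8 gene lists, with all 6 libraries (left) and without WT 2 (right); filled points passed the threshold (blue lower, orange higher), open points did not, and the black line is the list's median. The medians of the 2-cell-like and Kcnq1ot1 lists lie below 0 in both panels, while 9 naive pluripotency, 7 Polycomb and 40 ribosomal protein members are filled without WT 2 only. Both panels are from edgeR with TMM scaling and the gene filter.

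Among genes called only without WT replicate 2, the largest changes were moderate in those with a mean log2 CPM of at least 2, gene models left out. Some genes below that level had larger folds, such as Zscan4d, Gm4340 and Osbpl5 above. Lower were Piwil2, a PIWI protein of germ cells, at 7.04 and 5.43 CPM in WT replicates 1 and 3 against 2.59, 2.74 and 2.84 CPM in KD (-1.20, SE 0.26), and, between -0.98 and -0.79, S100a16, Fam198b, Zmynd15, Ikbke, Cd79b, Tunar, Ndn, Ampd3 and Nsmaf. Higher were Mid1, an X-linked ubiquitin ligase that binds microtubules, at 22.6 and 32.7 CPM in WT replicates 1 and 3 and 11.1 CPM in WT replicate 2, against 72.5, 69.8 and 88.7 CPM in KD (1.48, SE 0.23, edgeR adjusted p = 0.0405). Med12, a subunit of the Mediator kinase module, rose by 0.92 (SE 0.18), with WT replicate 2 the lowest library (1.82 CPM). Ankrd33b, Hykk, mt-Nd3, Zscan25, Adgrd1 and Dclre1b rose by 0.87 to 0.97.

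In the other lists few or no members passed with all libraries, in a fit that called 0.603% of all tested genes. With all libraries 0 members passed among the core pluripotency factors (13 tested, median 0.07), LIF and STAT3 targets (16, 0.10), p53 targets (21, 0.02), the double-stranded RNA and interferon response (18, 0.06), the small RNA pathway (13, 0.11), DNA replication and mitosis (24, 0.11), glycolysis and hypoxia (26, 0.00), cholesterol synthesis (21, 0.05), one-carbon metabolism (16, 0.06), the stress responses (18, 0.03) and replication-dependent histones (19, -0.47). When WT replicate 2 was left out the small RNA pathway and the histones had 0, and each of the others had 2 to 6 members past the threshold, in a fit that called 9.35% of all tested genes. Their shares ran from 2 of 24 for DNA replication and mitosis to 2 higher and 4 lower of 21 for cholesterol synthesis. LIF and STAT3 targets and one-carbon metabolism each had 2 higher and 2 lower of 16, and core pluripotency 2 higher and 1 lower of 13. In the interferon list these were 2 higher and 1 lower of 19, and the RNA sensor Ddx58 was 1 of them (0.70, edgeR adjusted p = 0.0142). Of 16 formative and primed genes 1 rose, which was Dnmt3b, and of 10 neural genes Nefm rose and Celsr2 and Mt3 fell. The list of fibroblast genes had 0 of 6 past the threshold (median -0.03), that of structural RNAs 0 of 7 (0.03), and of 10 haemato-endothelial genes Vegfc alone passed (-0.05). By chromosome, medians of genes with a mean log2 CPM of at least 3 shifted little. For every autosome and chromosome X the median log2 difference of KD from WT lay between -0.03 (chromosome 7) and 0.10 (chromosome 18), and without WT replicate 2 between -0.02 and 0.07. It was 0.23 for the 12 mitochondrial genes.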

How the data were processed

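Libraries of 3 WT and 3 KD ESC samples were analysed; groups come from the labels. HISAT2 2.1.0, featureCounts 2.0.3, DESeq2 1.18.1 and the build mm10 are named in the submitters' processing notes. The authors deposited raw counts per gene (Ensembl release 90, GRCm38, per the file headers), from pairs with both ends mapped, with no strand option and no option to count pairs, so mates may count separately and CPM precision is overstated. Symbols matched 52403 of 52636 identifiers. Here genes were filtered (filterByExpr, minimum count 10, total 15) and compared with edgeR 4.0.16 (R 4.3.3; TMM, robust quasi-likelihood F-test, no covariate). SE is the absolute log2 fold change over the square root of F. CPM are counts per M of TMM-scaled library size; log2 CPM used a prior count of 1. Alternatives were RLE and library-size scaling, DESeq2 1.42.0, limma 3.58.1 voom with quality weights, other filters, all 12 libraries, a replicate block and each library left out; leaving out a further library beside WT replicate 2 was added after seeing the data. EB values came from the same fit of 6 EB libraries, and differences between stages from 1 fit of all 12. Tested on simulated counts of 15828 genes, edgeR recovered 100% of 100 genes changed by 1 and of 100 changed by 2 on the log2 scale, with 10 false calls. The simulated libraries shared 1 fixed spread and none stood apart, and only genes with a mean of over 100 counts were changed. This recovery therefore does not carry over to the real libraries with WT replicate 2, or to genes with few counts. No replicate pair held identical counts. Total counts set only the counting error.

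The members and the 38 gene lists were chosen with earlier results of these data known. Genes named are Kat6b and its list, those called in all 6 fits with a library left out, the 12 highest and lowest called (mean log2 CPM of at least 1, no gene models), the 10 highest and lowest called only without WT replicate 2 (at least 2), the 8 farthest genes on each side for WT replicate 2 (at least 4), called list members or else the member with the smallest p, and cell type markers. Some genes that this rule picks are not reported here, and others were named beyond the rule for being list neighbours (Ube2l6, Gm26917, Kcnq1ot1, Osbpl5 and members called only without WT replicate 2), chosen after their values were seen.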

Additional observations from a re-analysis of the deposited data

Results flagged for a closer look

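The KD effect differed between undifferentiated ESCs and day 6 EBs for 5 of the 7 genes called whichever ESC library was left out, by the difference of the KD effects in 1 edgeR fit of all 12 libraries. In that fit 4370 of 18975 genes (percent called 23) had a difference past the threshold. The 7 genes were chosen by their ESC calls and the difference reuses the same ESC values, so the choice favours a large ESC effect. The difference, ESC minus EB on the log2 scale, was 4.34 for Gm21742 (SE 0.23, edgeR adjusted p = 1.57e-08) and -3.98 for Gm21761 (SE 0.45, adjusted p = 1.54e-05). It was -1.55 for Lars2 (SE 0.16, adjusted p = 1.45e-05) and -0.67 for Celsr2 (SE 0.18, adjusted p = 0.0123), which fell at both stages and more in ESCs. It was 0.77 for Phlda2 (SE 0.19, adjusted p = 0.0101), which fell more in EBs. For Slc22a18 the difference did not pass (0.41, SE 0.44, adjusted p = 0.562), nor did it for Smtnl1 (-3.01, SE 1.21, adjusted p = 0.0895), which had 0 to 6 counts in EB libraries.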

How the results depend on the processing

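The number of genes called depended strongly on the processing. Against 97 with edgeR and all 6 libraries it was 36 with library size only, 1030 with DESeq2, 1032 with limma voom and quality weights, 1769 without a filter, 1999 in the fit of all 12 libraries and 1493 with DESeq2 and without WT replicate 2, and it ran from 8 to 1557 with 1 library left out; the cause was not tested. RLE scaling gave 92 and a minimum of 10 counts in every library 113. A replicate block gave 266 calls. Samples with the same number did not deviate together (r = -0.02, 0.03 and 0.02), and those with different numbers had r from -0.05 to 0.04. The WT deviations include the library that stands apart, so whether the numbers pair the samples cannot be told from these values. Without WT replicate 2, the 1557 calls became 1493 with DESeq2, 1750 with library size only and 1594 without a filter, and 752 to 1303 with a further library left out; where 1 WT library remained, it was assumed to vary like the KD libraries. Of the 86 named genes none changed sign past a threshold. Of their 39 called with all libraries, 20 lost the call with library size only, 26 without WT replicate 1 and 30, 31 and 32 without KD replicates 1, 2 and 3. None of the 39 lost it without WT replicate 2, while 36 others gained one. Many of these 36 were named for being called only without WT replicate 2, so their gains are part of how they were chosen. DESeq2 gave no adjusted p for 4367 genes, or 6455 without WT replicate 2, and these are not counted as lost. Genes near 1 CPM rest on few counts a library.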

Other observations

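Gm21742 on chromosome Y was called higher in KD, and the X-linked Mid1 only without WT replicate 2. The copy of Mid1 on chromosome Y, Mid1-ps1, looked at after its values were seen, was at 2.35, 0.837 and 6.39 CPM in WT and 8.68, 10.6 and 11 CPM in KD (1.66, SE 0.61), and it did not pass in edgeR with all libraries (adjusted p = 0.192) or without WT replicate 2 (adjusted p = 0.0868). WT replicate 2 was the lowest library for each of the 3.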
